A study of Mus musculus with 15 samples.

Results

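The 35 genes described here encode the enzymes of glycolysis and gluconeogenesis, together with the fructose and sorbitol enzymes that feed them and the malate and pyruvate dehydrogenases that connect them to the mitochondrion. They were given as a list of gene symbols, and all 35 were found among the 54752 genes of the count table. RNA was sequenced from convoluted tubules dissected from mouse kidney, and the 15 libraries fell into 4 groups. These were wild-type (WT) proximal convoluted tubule (PCT, n = 4), Cldn10a KO PCT (n = 3), WT distal convoluted tubule (DCT, n = 4) and Cldn10a KO DCT (n = 4). Cldn10 encodes claudin-10, a tight junction protein, and the mice carried or lacked its form 10a. No strain, age, sex or allele is stated in the labels, and all mice had free access to a standard diet. Each sample was a pool of tubules, 10 PCTs or about 20 DCTs from a kidney. The labels do not tie a library to an animal, so p-values measure only the spread between these samples.

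Glycolysis splits glucose into pyruvate and yields ATP, and gluconeogenesis builds glucose back from lactate, glutamine or glycerol. Most steps are reversible and are shared, while hexokinase, phosphofructokinase and pyruvate kinase drive glycolysis, and pyruvate carboxylase, phosphoenolpyruvate carboxykinase, fructose bisphosphatase and glucose-6-phosphatase bypass those steps in the other direction. In the kidney the proximal tubule is known for making glucose, and the distal segments are known for burning it.

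The libraries held 28729339 to 51764746 counts, of which 57.8 to 71.6% lay on mitochondrial ribosomal RNA and 8.02 to 19.7% on nuclear protein-coding genes. The 35 genes together took 39214 to 123575 counts per library, or 1.01 to 2.13% of the nuclear protein-coding counts. Cldn10 had 541 to 1514 counts in the WT PCT libraries and 0 in each of the 3 KO PCT libraries, and with 0 to 24 counts in the DCT libraries it does not check the distal labels. Over 12 markers of early proximal tubule the summed level was 4618 to 5689 counts per 1000000 (CPM) in PCT and 21.2 to 35.9 CPM in DCT, and over 12 markers of distal convoluted tubule it was 5591 to 7646 CPM in DCT and 216 to 268 CPM in PCT. CPM are scaled to library size by trimmed means of M values, and the values of a group are listed in the order of their replicate numbers, which are 1, 2, 3 and 6 for WT PCT, 4, 5 and 7 for KO PCT, 1 to 4 for WT DCT and 5 to 8 for KO DCT.

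The promoters of the 3 genes with the largest difference in each direction between PCT and DCT of the wild type, among those called with at least 5 CPM in the higher segment, are shown, since these 6 genes mark the contrast that the results turn on. Each window is 300 bases of RefSeq's GRCm38.p6, from 250 before to 50 after the transcription start, written 5′ to 3′ on the strand of the gene, with exact matches to any of 7 motifs in capitals. Fbp1 (ENSMUSG00000069805, fructose bisphosphatase), Pck1 (ENSMUSG00000027513, cytosolic phosphoenolpyruvate carboxykinase) and G6pc (ENSMUSG00000078650, the catalytic subunit of glucose-6-phosphatase) were higher in PCT. Pkm (ENSMUSG00000032294, muscle-type pyruvate kinase), Hk1 (ENSMUSG00000037012, hexokinase 1) and Pfkp (ENSMUSG00000021196, platelet-type phosphofructokinase) were higher in DCT. The windows lie at chr13:62888233-62888532 (minus strand), chr2:173152823-173153122 (plus), chr11:101367466-101367765 (plus), chr9:59656326-59656625 (plus), chr10:62379859-62380158 (minus) and chr13:6648722-6649021 (minus), and for Pkm and Hk1 they are the first of 2 windows listed.
Fbp1: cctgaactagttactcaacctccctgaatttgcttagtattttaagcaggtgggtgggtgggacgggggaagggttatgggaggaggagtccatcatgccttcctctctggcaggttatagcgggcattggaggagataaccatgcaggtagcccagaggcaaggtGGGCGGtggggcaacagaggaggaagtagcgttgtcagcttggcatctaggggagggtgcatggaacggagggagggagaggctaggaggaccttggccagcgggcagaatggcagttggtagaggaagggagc
Pck1: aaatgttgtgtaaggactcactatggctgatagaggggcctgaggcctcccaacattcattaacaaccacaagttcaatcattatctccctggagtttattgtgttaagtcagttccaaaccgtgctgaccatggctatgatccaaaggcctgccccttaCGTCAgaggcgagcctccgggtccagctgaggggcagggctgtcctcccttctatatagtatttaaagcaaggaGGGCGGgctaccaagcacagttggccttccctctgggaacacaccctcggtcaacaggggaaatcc
G6pc: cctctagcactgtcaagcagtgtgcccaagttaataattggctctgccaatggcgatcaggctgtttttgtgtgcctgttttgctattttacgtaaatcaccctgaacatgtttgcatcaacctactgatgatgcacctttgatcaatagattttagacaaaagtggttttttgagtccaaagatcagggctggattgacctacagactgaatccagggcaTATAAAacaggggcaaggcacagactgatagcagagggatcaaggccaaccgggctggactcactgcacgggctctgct
Pkm: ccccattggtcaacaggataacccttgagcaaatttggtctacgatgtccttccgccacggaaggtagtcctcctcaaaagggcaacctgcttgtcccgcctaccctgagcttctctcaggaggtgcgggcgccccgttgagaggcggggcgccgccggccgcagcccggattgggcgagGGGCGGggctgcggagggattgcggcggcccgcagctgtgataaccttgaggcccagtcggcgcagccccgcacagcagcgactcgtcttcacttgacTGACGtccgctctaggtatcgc
Hk1: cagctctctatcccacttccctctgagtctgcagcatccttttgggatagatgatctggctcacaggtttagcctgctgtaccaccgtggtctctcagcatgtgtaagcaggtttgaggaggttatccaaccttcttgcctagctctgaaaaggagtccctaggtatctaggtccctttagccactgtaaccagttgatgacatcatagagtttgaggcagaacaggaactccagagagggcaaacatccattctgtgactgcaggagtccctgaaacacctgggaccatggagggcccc
Pfkp: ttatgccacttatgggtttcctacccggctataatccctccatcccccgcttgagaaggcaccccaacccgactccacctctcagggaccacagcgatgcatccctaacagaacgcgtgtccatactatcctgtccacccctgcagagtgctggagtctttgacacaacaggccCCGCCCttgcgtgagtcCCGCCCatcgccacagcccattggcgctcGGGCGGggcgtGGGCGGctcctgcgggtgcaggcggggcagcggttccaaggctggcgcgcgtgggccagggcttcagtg

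The motifs were searched on both strands as the cAMP response element TGACGTCA, the core TGACG within it (so that every full element also counts as a core), the palindromic HNF1 site, the HNF4 site CAAAGTCCA, the hypoxia response core ACGTG, the GC box GGGCGG and the TATA box TATAAA. In the 6 windows, Pck1 held the core of the cAMP element 90 bases and a GC box 16 bases before the start, G6pc held a TATA box 29 bases before it, and Fbp1 held 1 GC box. Pkm held a GC box before and the cAMP core after the start, Pfkp held 4 GC boxes, and no letters of Hk1 matched. Over the 35 genes, the cAMP core was found in 13 windows (37.1%, against 21% of 27025 promoters), the hypoxia core in 14 (40.0%, against 19.7%), the GC box in 23 (65.7%, against 35.9%), the full element in 2, Ldha and Mdh2 (1.88% of all promoters), and the TATA box in 2, Eno2 and G6pc (14.2% of all). The hypoxia core was present in 5 of the 11 genes higher in PCT and in 6 of the 14 higher in DCT, the GC box in 7 of 11 and 10 of 14, and the cAMP core in 5 of 11 and 6 of 14. The HNF1 and HNF4 letters were in none of the 35 windows and in 0.00740% and 0.477% of all promoters. The median GC content was 56.7% for the genes higher in PCT, 62.2% for those higher in DCT and 52.7% for all promoters. These are matches of letters, given as a description.

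Proximal and distal tubule were compared first. Gluconeogenic genes were higher in PCT by a wide margin: Pck1, Fbp1, Fbp2, G6pc, Slc37a4 and Pcx, 6 of the 7 in that group, were called in both genotypes. Hexokinase, all 5 genes of phosphofructokinase and its regulators, and muscle-type pyruvate kinase were higher in DCT, while the liver-type pyruvate kinase gene Pklr was counted only in PCT. The reversible middle steps differed little, with log2 differences within 1 for 7 of the 8 tested in WT. In the wild type, 25 of 32 tested genes were called (adjusted p under 0.05 by limma), 11 higher and 14 lower in PCT. That is 78.1% of those tested, against 48.7% of 13616 genes (23.6% higher and 25.1% lower).

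In the knockout, which shares no library with the wild type, 23 of 32 were called, 11 higher and 12 lower in PCT, or 71.9% against 40.6% of 13834 genes (20.4% higher and 20.2% lower). All 23 were also called in WT in the same direction, and the 32 tested genes had the same sign in both genotypes. Libraries of the 2 segments were fully apart for 23 of 32 in WT and 24 of 32 in KO, against 45% and 43.9% of all genes tested. Hk1, Pklr, Fbp1, Fbp2 and G6pc passed the filter on low counts within 1 segment only, so for these 5 a difference was built into the filter. The counts above and the adjusted p-values of these 5 between segments are a description. The median log2 difference over the 32 genes was -0.15 in WT and -0.13 in KO, against -0.023 and -0.039 over all genes tested. In tubule pools, fewer cells of a type and less RNA per cell cannot be told apart.

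**Figure D1:**
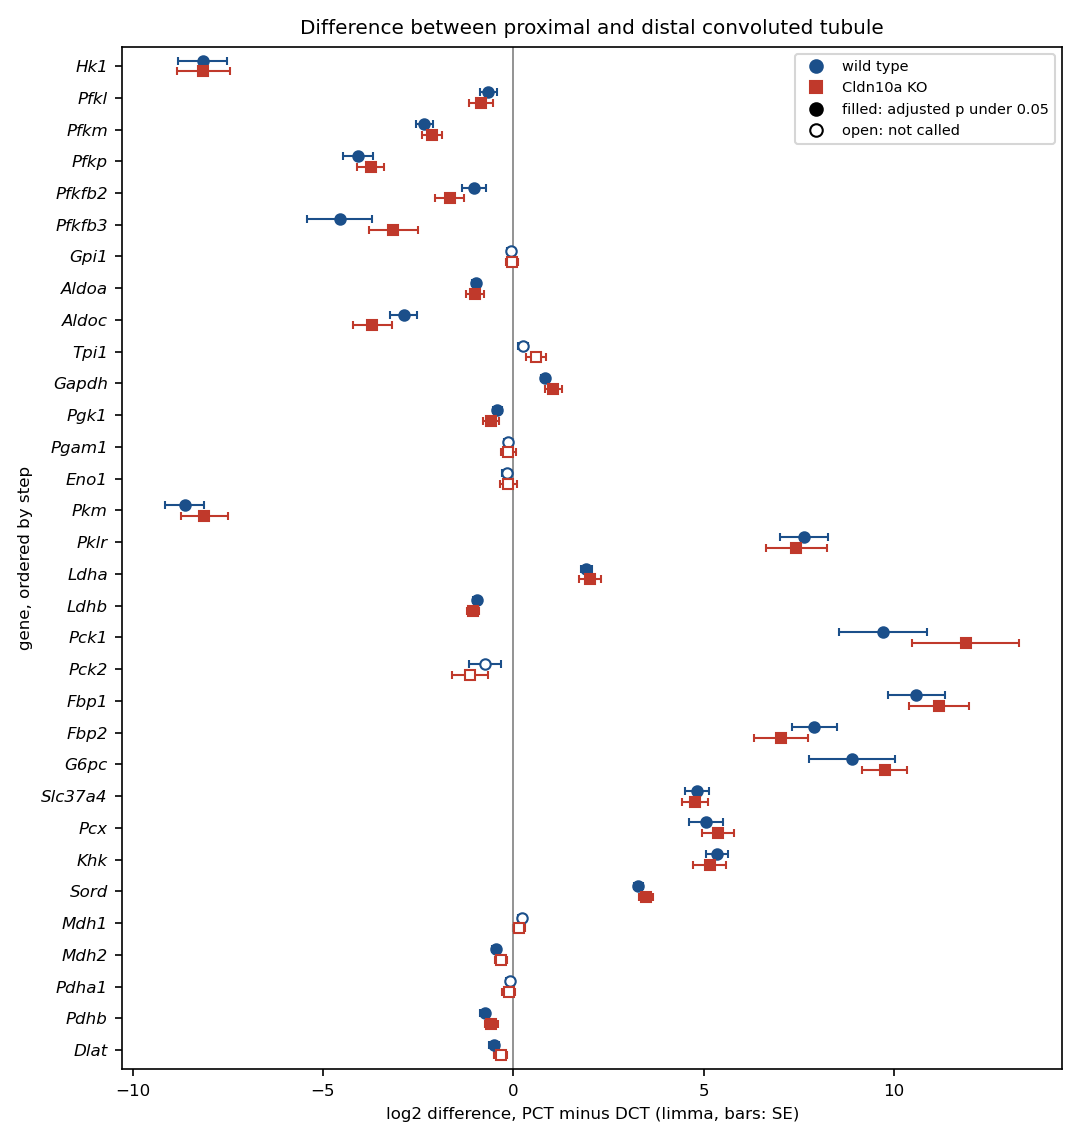
Log2 difference between PCT and DCT (x axis, PCT minus DCT, limma estimate with its standard error as bars) for the 32 genes that passed the filter, ordered by step (y axis), with circles for wild type and squares for Cldn10a KO, filled where the adjusted p was under 0.05. The gluconeogenic genes from Pck1 to Pcx other than Pck2 lie at 4.78 or more to the right, Hk1 and Pkm lie at -8.12 or less to the left, and the estimates for Pklr and Fbp2, which had no or almost no DCT counts, depend on the prior count.

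The gluconeogenic bypass was led by Pck1, which makes phosphoenolpyruvate from oxaloacetate. Its level was 724, 231, 205 and 285 CPM in the WT PCT libraries and 1020.4, 211 and 372 CPM in the KO PCT libraries. It was 0.379, 1.19, 0.0258 and 0.835 CPM in WT DCT and 0.420, 0, 0.298 and 0.0692 CPM in KO DCT. The lowest PCT library stood at 205 CPM and the highest DCT library at 1.19 CPM, and within each PCT group 1 library (WT replicate 1 and KO replicate 4) stood well above the others. The log2 difference was 9.71 (SE 1.16, adjusted p = 2.97e-06) in WT and 11.88 (SE 1.41, adjusted p = 8.78e-06) in KO, and with no filter on low counts the WT call was lost (log2 9.72, adjusted p = 0.0525 by limma). Pck2, the mitochondrial form of the enzyme, was low throughout at 0.311 to 0.891 CPM in WT PCT and 0.535 to 1.35 CPM in WT DCT, and was the only gene of this group that was not called (log2 -0.75, adjusted p = 0.155 in WT, and -1.13, adjusted p = 0.0719 in KO). It was called lower in PCT without WT DCT replicate 4 (log2 -1.09, adjusted p = 0.0303 by limma), on WT replicates 1 to 3 of each segment alone (log2 -1.12, adjusted p = 0.0466) and without KO DCT replicate 7 (log2 -1.34, adjusted p = 0.0361).

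Fbp1, which removes a phosphate from fructose bisphosphate, had 157, 188, 209 and 155 CPM in WT PCT and 165, 120.5 and 197 CPM in KO PCT. In DCT it had 0.172, 0.252, 0 and 0.235 CPM in WT and 0, 0.0581, 0.199 and 0.0922 CPM in KO. The lowest PCT library lay far above the highest DCT library, with 27 counts over the 4 WT DCT libraries. The log2 difference was 10.58 (SE 0.75, adjusted p = 8.81e-09 by limma) in WT and 11.17 (SE 0.78, adjusted p = 5.78e-08) in KO. As Fbp1 passed the filter through PCT alone, these p-values are a description. Fbp2, the muscle form of the same enzyme, had 3.41, 2.47, 3.41 and 3.14 CPM in WT PCT, 2.73, 1.47 and 2.60 CPM in KO PCT, and 1 count in all 8 DCT libraries. Against a floor of 3 counts per library, Fbp2 was at least 39.6-fold higher in PCT in WT, and in KO the ratio of summed counts was 353 (95% counting interval 62.9 to 14002). Per length, Fbp1 made up 98.0% ± 0.435 (SD, n = 4) of the fructose bisphosphatase CPM per kb in WT PCT.

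The last step, release of free glucose, needs G6pc and the transporter that brings glucose phosphate to it, Slc37a4. G6pc had 93.9, 67.1, 124 and 44.0 CPM in WT PCT and 74.0, 92.1 and 86.8 CPM in KO PCT. It had 0.0345, 0.274, 0.0774 and 0.343 CPM in WT DCT and 0.0525, 0.0581, 0.323 and 0.0461 CPM in KO DCT. The segments were far apart in both genotypes, and WT PCT spread more widely than KO PCT. For G6pc the log2 difference was 8.90 (SE 1.13, adjusted p = 5.56e-06 by limma) in WT and 9.75 (SE 0.59, adjusted p = 1.93e-08) in KO. G6pc also passed the filter through PCT alone, so its p-values are a description. Slc37a4 had 37.7, 28.9, 33.0 and 28.7 CPM in WT PCT, 28.8, 18.8 and 31.8 CPM in KO PCT, 1.79, 1.67, 1.19 and 0.514 CPM in WT DCT and 1.21, 0.581, 1.04 and 0.992 CPM in KO DCT. Its difference was smaller than that of its partner, at 4.82 (SE 0.31, adjusted p = 2.73e-09) in WT and 4.78 (SE 0.34, adjusted p = 7.00e-08) in KO, and the DCT libraries kept 4.02% of the PCT level in WT against 0.222% for G6pc.

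Pcx, pyruvate carboxylase, makes the oxaloacetate that Pck1 uses and also refills the citric acid cycle. Its level was 20.5, 21.6, 27.7 and 14.0 CPM in WT PCT and 19.1, 27.3 and 22.3 CPM in KO PCT, and 0.379, 0.435, 0.723 and 0.921 CPM in WT DCT and 0.945, 0.349, 0.274 and 0.876 CPM in KO DCT. The highest DCT library, at 0.945 CPM, was far under the lowest PCT library. The log2 difference was 5.06 (SE 0.44, adjusted p = 8.60e-08) in WT and 5.37 (SE 0.41, adjusted p = 1.25e-07) in KO.

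Both genes of fructose and polyol use were higher in PCT. Khk, ketohexokinase, traps fructose in the cell by phosphorylating it. It had 47.3, 53.8, 54.0 and 48.9 CPM in WT PCT, 67.0, 28.3 and 67.1 CPM in KO PCT, 1.72, 2.33, 0.981 and 0.642 CPM in WT DCT and 0.866, 1.19, 1.27 and 2.79 CPM in KO DCT. The groups did not overlap, although KO PCT replicate 5 lay far under the other PCT libraries. The log2 difference of Khk was 5.35 (SE 0.28, adjusted p = 3.91e-10) in WT and 5.15 (SE 0.44, adjusted p = 3.81e-07) in KO. Sord, sorbitol dehydrogenase, turns sorbitol into fructose. It had 219.7, 217, 239.6 and 218 CPM in WT PCT, 239.6, 184 and 251.5 CPM in KO PCT, 25.7, 25.5, 20.9 and 20.0 CPM in WT DCT and 24.9, 17.3, 17.4 and 21.8 CPM in KO DCT. Sord gave the smallest p of all 32 genes, with a log2 difference of 3.28 (SE 0.11, adjusted p = 1.62e-12) in WT and 3.48 (SE 0.18, adjusted p = 5.70e-09) in KO. A near-identical annotated copy of Sord took 6.98 to 10.7% of the counts of the pair.

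Levels of proximal genes in the DCT libraries were measured against those of proximal markers that a distal cell should lack. In WT, DCT held 0.0747% of the PCT level of the phosphate transporter gene Slc34a1 and 0.595% of that of the endocytic receptor gene Lrp2. The corresponding values were 0.0931% for Fbp1, 0.168% for Pck1 and 0.222% for G6pc, inside that span, and 2.78% for Khk, 2.93% for Pcx, 4.02% for Slc37a4 and 10.3% for Sord, above it. In the other direction, PCT held 0.0404% of the DCT level of the thiazide-sensitive cotransporter gene Slc12a3 and 0.0799% of that of Pvalb, against 0.283% for Pkm and 0.296% for Hk1. Slc12a3 and Pvalb are among the 12 markers of distal convoluted tubule. All 12 together summed to 241 to 268 CPM in WT PCT and 5591 to 7646 CPM in WT DCT, a larger share than for Pkm or Hk1. The part of carried-over RNA in these values was not tested.

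Glycolysis starts at hexokinase, and Hk1 was a distal gene in these libraries. It had 12.0, 16.2, 17.0 and 18.6 CPM in WT DCT and 19.3, 15.9, 14.6 and 16.0 CPM in KO DCT. In PCT it had 9 counts over the 4 WT libraries and 6 over the 3 KO libraries, with 1 to 3 in any library. By summed counts the level in DCT was 351 times that in PCT in WT (95% counting interval 185 to 768, counting error only) and 332 times in KO (153 to 907). The difference was called in both (adjusted p = 3.46e-08 and 3.72e-07 by limma). These p-values are a description, since Hk1 passed the filter through DCT alone. Hk2, the insulin-regulated hexokinase of muscle and fat, had 5 counts in all 15 libraries and passed no filter. From the list of other isoforms, Hkdc1, a hexokinase domain gene, held 14.7% ± 4.19 (SD, n = 4) of the hexokinase CPM per kb in WT DCT and no count in PCT.

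Phosphofructokinase commits sugar to glycolysis, and its 3 genes were all higher in DCT. Pfkm, the muscle form, had 1.90, 1.91, 2.20 and 1.98 CPM in WT PCT, 2.98, 1.94 and 2.09 CPM in KO PCT, 7.2, 9.88, 13.4 and 10.3 CPM in WT DCT and 10.3, 9.82, 8.38 and 12.3 CPM in KO DCT. Pfkp, the platelet form, had 1.96, 0.704, 0.341 and 0.409 CPM in WT PCT, 0.975, 0.745 and 0.617 CPM in KO PCT, 8.58, 10.3, 12.7 and 13.4 CPM in WT DCT and 12.0, 10.4, 7.96 and 11.5 CPM in KO DCT. The segments did not overlap for either gene. The log2 difference was -2.34 (SE 0.22, adjusted p = 1.99e-07) in WT and -2.14 (SE 0.26, adjusted p = 9.87e-06) in KO for Pfkm, and -4.07 (SE 0.39, adjusted p = 2.79e-07) and -3.74 (SE 0.36, adjusted p = 1.06e-06) for Pfkp. Pfkl, the liver form, differed least, with 1.82, 2.01, 3.51 and 2.23 CPM in WT PCT, 1.28, 1.57 and 1.61 CPM in KO PCT, 3.93, 3.77, 3.10 and 3.90 CPM in WT DCT and 3.67, 3.17, 2.14 and 2.26 CPM in KO DCT. In WT, PCT replicate 3 lay inside the DCT range. The log2 difference of Pfkl was -0.66 (SE 0.22, adjusted p = 0.0230) in WT and -0.85 (SE 0.31, adjusted p = 0.0433) in KO and the call was fragile. It was lost in WT without PCT replicate 1 or 2 or DCT replicate 2 or 4 (adjusted p from 0.0501 to 0.0802 by limma), and in KO without PCT replicate 4, 5 or 7 or DCT replicate 5 or 6 (0.0678 to 0.139). Exons of Pfkp overlap those of Pitrm1 on the opposite strand over 5.58% of their length.

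Pfkfb2 and Pfkfb3 encode enzymes that make and remove the signal molecule which switches phosphofructokinase on. Pfkfb2 had 1.03, 1.10, 0.682 and 1.8 CPM in WT PCT, 0.418, 1.02 and 1.12 CPM in KO PCT, 1.38, 1.92, 2.66 and 2.78 CPM in WT DCT and 2.89, 2.21, 2.83 and 2.54 CPM in KO DCT. Pfkfb3 had 0.269, 0.207, 0 and 0.909 CPM in WT PCT, 0.919, 0.273 and 0.352 CPM in KO PCT, 3.96, 4.83, 2.86 and 2.29 CPM in WT DCT and 5.72, 2.44, 6.76 and 2.63 CPM in KO DCT. WT groups overlapped for Pfkfb2 only. Both genes were called higher in DCT, with log2 differences of -1.03 (SE 0.32, adjusted p = 0.0138) in WT and -1.67 (SE 0.38, adjusted p = 0.00272) in KO for Pfkfb2, and -4.56 (SE 0.85, adjusted p = 2.97e-04) and -3.15 (SE 0.63, adjusted p = 0.00100) for Pfkfb3. The WT call of Pfkfb2 was lost without PCT replicate 3 (adjusted p = 0.0658 by limma) or DCT replicate 4 (adjusted p = 0.0539).

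Pyruvate kinase, the last step of glycolysis, showed an exchange of genes between the segments. Pkm, the muscle-type gene, had 69.0, 59.4, 73.8 and 85.4 CPM in WT DCT and 60.7, 61.0, 50 and 70.9 CPM in KO DCT. In PCT it had 0.103, 0.186, 0.114 and 0.409 CPM in WT and 0.334, 0.0497 and 0.441 CPM in KO, from 2 to 20 counts per library. The ratio of summed counts between DCT and PCT was 368 in WT (95% counting interval 268 to 521, adjusted p = 1.18e-09 by limma) and 218 in KO (156 to 314, adjusted p = 1.25e-07). Pklr, the gene of the liver and red cell forms, had 3.28, 2.11, 2.90 and 2.02 CPM in WT PCT and 3.29, 2.88 and 1.21 CPM in KO PCT, and no count in any of the 8 DCT libraries. With a floor of 3 counts per library Pklr was at least 32.9-fold higher in PCT in WT and at least 31.8-fold in KO. Its adjusted p of 4.97e-08 and 3.64e-06 by limma is a description, since Pklr passed the filter through PCT alone. Per length, Pkm made up all of the pyruvate kinase CPM per kb in DCT, and Pklr made up 94.6% ± 4.41 (SD, n = 4) of it in WT PCT and 91.2% ± 9.25 (SD, n = 3) in KO PCT. The leading gene of each segment stood at 0.797 CPM per kb (Pklr in WT PCT) and 14.4 CPM per kb (Pkm in WT DCT). Near-identical copies of Pkm held 0 to 50% of the counts of that family in a library. Exons of Pklr overlap those of Hcn3 on the opposite strand over 22.0% of their length, and Hcn3 had 26 counts in all.

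Lactate dehydrogenase interconverts pyruvate and lactate, and its A subunit is usual in tissues that make lactate and its B subunit in tissues that burn it. Ldha had 133, 184, 167 and 188 CPM in WT PCT, 170.4, 94.4 and 224 CPM in KO PCT, 38.9, 36.9, 53.4 and 47.2 CPM in WT DCT and 31.2, 51.9, 27.0 and 50.9 CPM in KO DCT. Ldhb had 128, 138, 151 and 119 CPM in WT PCT, 115, 89.6 and 116 CPM in KO PCT, 231, 263, 264 and 268 CPM in WT DCT and 225, 247, 198 and 225 CPM in KO DCT. The A gene was higher in PCT and the B gene in DCT, and for neither did the segments overlap. The log2 difference was 1.92 (SE 0.14, adjusted p = 8.80e-09) in WT and 2.0 (SE 0.29, adjusted p = 5.49e-05) in KO for Ldha. For Ldhb it was -0.95 (SE 0.097, adjusted p = 4.86e-07) in WT and -1.06 (SE 0.16, adjusted p = 6.31e-05) in KO. Ldhb held the larger share of the pair in both segments, 62.7% ± 4.51 in WT PCT and 92.5% ± 1.03 in WT DCT (SD, n = 4, of CPM per kb).

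The steps shared by both pathways gave 8 tested genes, of which 1 was higher and 3 lower in PCT in each genotype. Over all genes tested, 48.7% were called in WT and 40.6% in KO, so this count is near the general share. Aldoa, the general aldolase, had 55.7, 61.9, 64.4 and 64.9 CPM in WT PCT, 59.3, 33.1 and 70.9 CPM in KO PCT, 121, 101, 131 and 135 CPM in WT DCT and 104, 118, 80.4 and 126 CPM in KO DCT. Aldoc, the brain aldolase, had 0.971, 0.249, 0.663 and 0.682 CPM in WT PCT, 0.502, 0.447 and 0.154 CPM in KO PCT, 3.79, 5.44, 3.69 and 4.24 CPM in WT DCT and 3.96, 4.82, 3.33 and 5.40 CPM in KO DCT. Both genes were higher in DCT without overlap, Aldoa by a log2 difference of -0.99 (SE 0.11, adjusted p = 9.43e-07) in WT and -1.01 (SE 0.24, adjusted p = 0.00333) in KO, and Aldoc by -2.88 (SE 0.35, adjusted p = 3.86e-06) and -3.70 (SE 0.51, adjusted p = 3.49e-05). A second row with the symbol Aldoa had 2 counts in all and was left out.

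Gapdh, glyceraldehyde phosphate dehydrogenase, is often taken as a reference gene, and it was higher in PCT. It had 364, 358, 424 and 397 CPM in WT PCT, 385, 232 and 481 CPM in KO PCT, 225, 195, 233 and 208 CPM in WT DCT and 168, 213, 144 and 166 CPM in KO DCT. The PCT and DCT libraries did not overlap within a genotype, the nearest being KO PCT replicate 5 and KO DCT replicate 6. The log2 difference was 0.83 (SE 0.095, adjusted p = 1.92e-06, a 1.78-fold difference) in WT and 1.05 (SE 0.22, adjusted p = 0.00149, 2.07-fold) in KO. Pgk1, the first ATP-yielding step, went the other way, with 57.5, 70.5, 68.7 and 62.0 CPM in WT PCT, 51.2, 35.2 and 61.6 CPM in KO PCT, 82.7, 87.6, 102 and 72.9 CPM in WT DCT and 67.5, 88.3, 57.2 and 83.9 CPM in KO DCT. KO groups of Pgk1 overlapped, and its log2 difference was -0.42 (SE 0.11, adjusted p = 0.00551) in WT and -0.59 (SE 0.21, adjusted p = 0.0370) in KO. The KO call of Pgk1 was lost without PCT replicate 4 or 5 or DCT replicate 5, 6 or 8 (adjusted p from 0.0736 to 0.147 by limma). Near-identical annotated copies took 29.4 to 38.5% of the counts of the Pgk1 family, 31.9 to 37.3% of those of Eno1 and 6.61 to 21.6% of those of Pgam1, so the levels of these 3 genes are uncertain, and a copy of Ldhb took 7.46 to 9.42%.

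Gpi1, Tpi1, Pgam1 and Eno1, which isomerise or dehydrate the intermediates between glucose phosphate and phosphoenolpyruvate, were not called in either genotype. Gpi1 ranged over 28.2 to 31.6 CPM in WT PCT and 27.6 to 35 CPM in WT DCT, and its log2 difference was -0.064 (SE 0.11, adjusted p = 0.650). Tpi1 ranged over 30.9 to 41.3 CPM and 23.4 to 31.8 CPM in the same groups, with a log2 difference of 0.25 (adjusted p = 0.111) in WT and 0.59 (adjusted p = 0.0844) in KO. In KO Tpi1 was called without PCT replicate 5 (log2 0.89, adjusted p = 0.00868 by limma), with sample quality weights (adjusted p = 0.0164) and in 1 fit of all 15 libraries (adjusted p = 0.0351). The corresponding values in WT were -0.13 (adjusted p = 0.417) for Pgam1 and -0.17 (adjusted p = 0.284) for Eno1. Eno2 and Eno3, the neuronal and muscle enolases, had 24 and 71 counts in all 15 libraries and passed no filter, and Eno1 made up 99.5% ± 0.412 of the enolase CPM per kb in WT PCT and 99.3% ± 0.846 in WT DCT (SD, n = 4). Phosphoglycerate mutase has a second gene: Pgam2, the muscle form from the list of other isoforms, had 121 ± 8.08 CPM (SD, n = 4) in WT DCT and 0.0802 ± 0.0698 CPM in WT PCT, and took 74.5% ± 2.58 of the CPM per kb of that step in WT DCT.

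**Figure D2:**
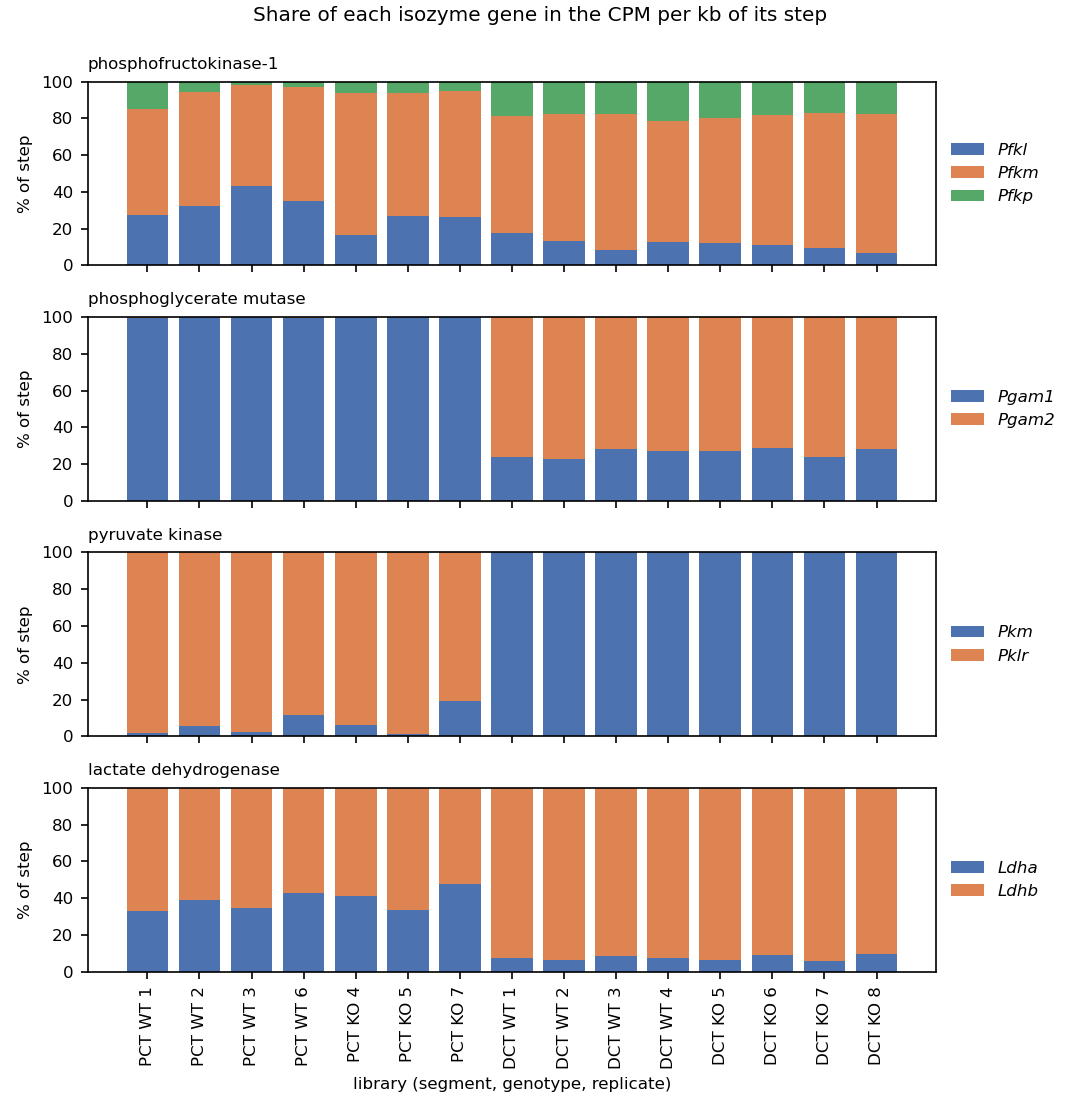
Share (y axis, % of CPM per kb) of each isozyme gene within 4 steps, in each of the 15 libraries (x axis), as stacked bars coloured by gene. Pgam1 and Pklr fill most of their steps in the 7 PCT libraries, while Pgam2 and Pkm do so in the 8 DCT libraries, and Ldhb takes 90.3 to 93.9% of lactate dehydrogenase in every DCT library.

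The enzymes next to the mitochondrion differed by less than 1 on the log2 scale in both genotypes. Mdh1 and Mdh2, the cytosolic and mitochondrial malate dehydrogenases, interconvert malate and oxaloacetate. Mdh1 ranged over 165 to 177 CPM in WT PCT and 124 to 167 CPM in WT DCT and was not called (log2 0.22, adjusted p = 0.0735). It was called under 3 alternatives, which were no filter on low counts (adjusted p = 0.0130 by limma), scaling on nuclear protein-coding genes (0.0368) and leaving out DCT replicate 3 (log2 0.28, adjusted p = 0.0386). Mdh2 had 60.2, 56.4, 63.4 and 61.5 CPM in WT PCT, 55.3, 55.1 and 58.5 CPM in KO PCT, 86.9, 69.0, 82.9 and 94.5 CPM in WT DCT and 70.8, 73.5, 64.4 and 75.6 CPM in KO DCT. It was lower in PCT without overlap and was called in WT (log2 -0.47, SE 0.11, adjusted p = 0.00168) but not in KO (log2 -0.32, SE 0.15, adjusted p = 0.0948), although it was called in KO in 1 fit of all 15 libraries (log2 -0.33, adjusted p = 0.0344). The interaction of genotype and segment for Mdh2 was 0.12 (SE 0.17, adjusted p = 0.994).

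Pdha1, Pdhb and Dlat encode subunits of the pyruvate dehydrogenase complex, which turns pyruvate into acetyl-CoA. Pdhb had 18.4, 15.8, 18.9 and 19.0 CPM in WT PCT, 19.7, 22.9 and 17.2 CPM in KO PCT, 25.1, 27.7, 35.5 and 33.0 CPM in WT DCT and 28.8, 33.8, 29.8 and 27.8 CPM in KO DCT. It was lower in PCT in both genotypes without overlap, with log2 differences of -0.76 (SE 0.13, adjusted p = 1.12e-04) and -0.59 (SE 0.17, adjusted p = 0.0128). The KO call of Pdhb was lost without PCT replicate 7 (adjusted p = 0.0706 by limma) or DCT replicate 6 (adjusted p = 0.0516). Dlat had 28.0, 23.4, 20.6 and 18.6 CPM in WT PCT, 22.9, 29.8 and 24.4 CPM in KO PCT, 28.2, 29, 33.4 and 36.0 CPM in WT DCT and 30.7, 36.6, 29.3 and 33.6 CPM in KO DCT. It was called in WT (log2 -0.51, SE 0.13, adjusted p = 0.00510) and not in KO (log2 -0.33, adjusted p = 0.136), and the interaction was 0.15 (SE 0.21, adjusted p = 0.994). The WT call of Dlat was lost on replicates 1 to 3 of each segment alone (log2 -0.34, adjusted p = 0.0713 by limma). In KO it was called without PCT replicate 5 (log2 -0.44, adjusted p = 0.0404) and with sample quality weights (adjusted p = 0.0479). Pdha1 ranged over 27.5 to 32.9 CPM in WT PCT and 29.9 to 34.0 CPM in WT DCT and was not called (log2 -0.094, adjusted p = 0.486).

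The DCT libraries also held RNA of neighbouring segments. Summed over 9 markers of thick ascending limb the level was 324 to 552 CPM in WT DCT and 458 to 603 CPM in KO DCT, against 0.559 to 1.55 CPM in PCT, where 4 of the 9 were at 0 in each genotype. Intercalated cell markers summed to 162 to 323 CPM and those of connecting tubule and principal cells to 84.5 to 177 CPM in DCT. The part of these cells in the DCT levels of Hk1, Pkm, Pfkp and the other genes was not tested.

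**Figure D3:**
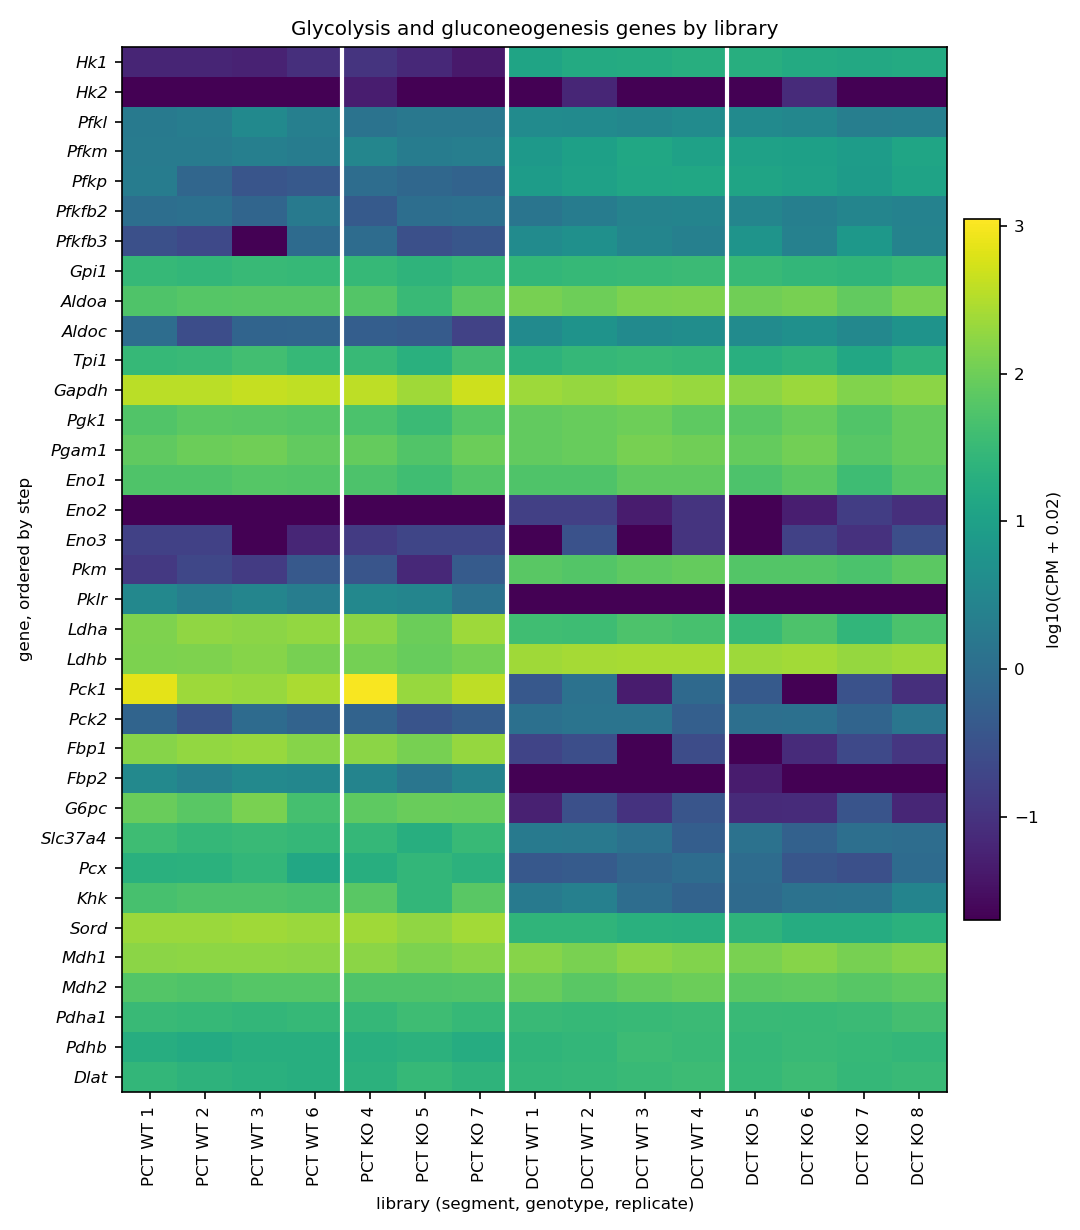
Level of each of the 35 genes (y axis, ordered by step) in each of the 15 libraries (x axis), as log10 of CPM plus 0.02 on a colour scale. Hk1, Pkm and Pfkp are brighter in the 8 DCT libraries than in PCT, and Pck1, Fbp1, G6pc and Sord show the opposite. Hk2 and Eno2 are near the floor throughout.

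Ranked per length among the 35 genes, the transcripts of WT PCT were headed by Pck1 at 105 ± 71.2 CPM per kb (SD, n = 4), Fbp1 at 104 ± 15.3, Sord at 95 ± 4.57, Gapdh at 93.3 ± 7.47 and Ldhb at 85.2 ± 8.92. Neighbours among these 5 overlapped within their SD, while Mdh1 at 66.7 ± 2.55 lay under Ldhb by more than their SDs, and Ldha followed at 50.8 ± 7.62. Among the 35 genes, Ldhb headed WT DCT at 163 ± 10.8 CPM per kb, well apart from Mdh1 at 57.1 ± 6.88, Gapdh at 52.1 ± 4.12, Pgam1 at 49.6 ± 8.63 and Aldoa at 41.9 ± 5.11, neighbours that overlap within their SD. Pgam2, which is not one of the 35, stood at 144 ± 9.62 CPM per kb in WT DCT and overlapped Ldhb within their SDs. Pkm stood at 14.4 ± 2.16 and Hk1 at 1.87 ± 0.328 CPM per kb there.

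Knockout and wild type were compared within each segment to see whether loss of claudin-10a moved these genes. In PCT none of the 31 tested genes was called, and at an unadjusted p under 0.05 there were 2 of 31, Pgk1 and Ldhb, against 976 of all genes tested (7.38%), which is near the same share. The lowest adjusted p was 0.643, and 22 of 13229 genes (0.166%) were called in this comparison, 0.0983% higher and 0.068% lower in KO. Estimates ran from -0.87 to 1.67 on the log2 scale with a median of -0.15, against -0.015 over all genes tested, and 10 lay above and 21 below 0. The median SE was 0.22, and a p that misses the threshold does not show that a gene kept its level.

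Ldhb was 128, 138, 151 and 119 CPM in WT PCT and 115, 89.6 and 116 CPM in KO PCT, without overlap (log2 -0.34, SE 0.16, adjusted p = 0.671 by limma). Pfkl was the other gene whose PCT groups did not overlap (log2 -0.65, SE 0.31, adjusted p = 0.685). That makes 2 of 31, against 7.97% of all genes tested. Pgk1 had a log2 difference of -0.44 (SE 0.19, adjusted p = 0.643 by limma). The gluconeogenic genes gave 0.44 (SE 0.47, adjusted p = 0.869) for Pck1, -0.17 (SE 0.18, adjusted p = 0.873) for Fbp1, 0.12 (SE 0.27, adjusted p = 0.944) for G6pc and 0.14 (SE 0.22, adjusted p = 0.915) for Pcx. The highest estimate, 1.67 for Pfkfb3, had an SE of 1.07 and rested on levels under 1 CPM.

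The sign of the median in PCT rested on 1 library. KO PCT replicate 5 was the lowest of the 7 PCT libraries for 17 of the 31 genes, and without it the median was 0.0032, with 16 genes above and 15 below 0. It held 68.0% of its counts on mitochondrial ribosomal RNA and 13.7% on nuclear protein-coding genes. WT PCT replicate 6, the lowest library for 3 of the 31 genes, held 65.3% and 12.5%. The part of RNA make-up in these values was not tested. Without KO PCT replicate 5 the log2 difference of Gapdh moved from -0.15 to 0.15 and that of Ldha from -0.13 to 0.22. That of Pgk1 moved from -0.44 to -0.21 and that of Pck1 from 0.44 to 0.96. Markers of the straight proximal tubule, all 12 of which were detected, summed to 325 to 588 CPM in WT PCT and 1002 to 1061 CPM in KO PCT, while early proximal markers summed to 4618 to 5689 and 4743 to 5083 CPM. The part of tubule position in the PCT values was not tested.

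In DCT none of the 28 tested genes was called, as was the case for all 12968 genes (0%). At an unadjusted p under 0.05 there were 2 of 28, Tpi1 and Gapdh, against 925 of all genes tested (7.13%), which is near the same share. Tpi1 had 23.4, 28.8, 31.8 and 28.9 CPM in WT and 19.8, 25.0, 13.8 and 24.6 CPM in KO (log2 -0.48, SE 0.17, adjusted p = 0.670 by limma). Gapdh had 225, 195, 233 and 208 CPM in WT and 168, 213, 144 and 166 CPM in KO (log2 -0.33, SE 0.13, adjusted p = 0.670 by limma). Both overlapped between genotypes, as did all 28 genes, against 3.82% of all genes tested that did not. Estimates ran from -1.70 for Pck1, which had under 1.2 CPM there, to 0.27, with a median of -0.16 against -0.0062 over all genes, and the lowest adjusted p was 0.670. KO DCT replicate 7 was the lowest of the 8 DCT libraries for 16 of the 28 genes, and without it the median was -0.033. It held 71.5% of its counts on mitochondrial ribosomal RNA. WT DCT replicate 1, the lowest library for 5 of the 28 genes, held 71.6%. Whether RNA make-up had a part in the DCT values was not tested.

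The distal glycolytic genes gave 0.039 (SE 0.16, adjusted p = 0.975) for Hk1, -0.24 (SE 0.14, adjusted p = 0.702) for Pkm and -0.11 (SE 0.18, adjusted p = 0.918) for Pfkp. For the interaction of genotype and segment, 0 of 32 genes were called by limma (0% of 15279 genes), none had an unadjusted p under 0.05 (5.56% of all genes tested), and the lowest adjusted p was 0.974. In the authors' deposited table for PCT, 136 of 14748 genes had an adjusted p under 0.05, none of them among the 32 of these genes with a value, whose lowest was 0.658 for Pfkl. The authors' deposited table for DCT had 3 of 7181 such genes and none among 23 of these, with 0.441 for Tpi1 as the lowest.

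**Figure D4:**
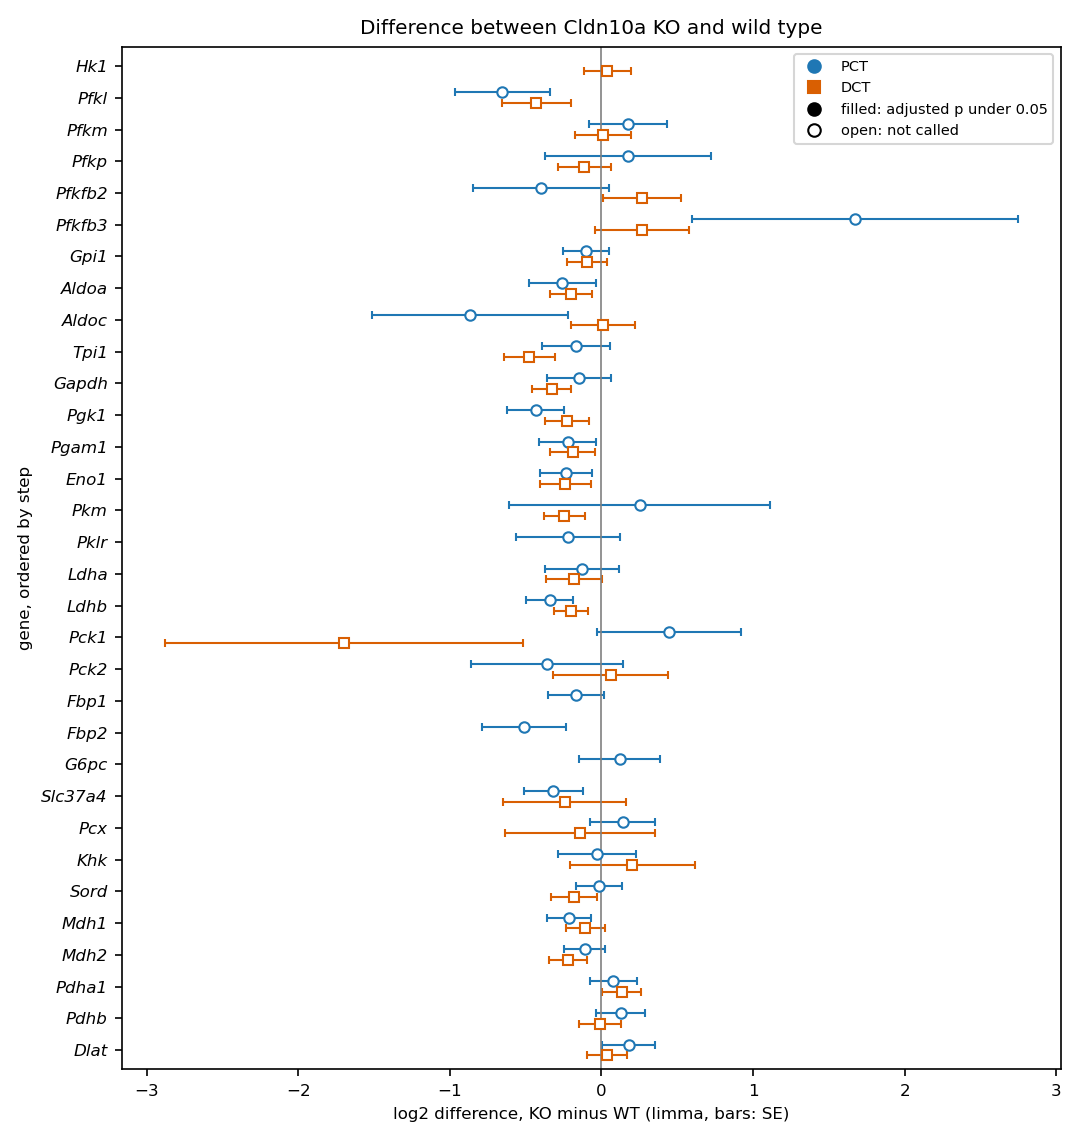
Log2 difference between Cldn10a KO and wild type (x axis, KO minus WT, limma estimate with its standard error as bars) in PCT (circles) and DCT (squares) for each gene tested (y axis, ordered by step). All symbols are open, since no adjusted p was under 0.05, and the widest bars belong to genes with few counts such as Pfkfb3 in PCT and Pck1 in DCT.

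Other genes of the pathway were read from lists of 104 genes in 7 groups. Between segments in WT, 34 of the 91 tested were higher and 35 lower in PCT, and in KO 34 and 27 of 94. The shares called over all genes were 48.7% in WT and 40.6% in KO, and several of the lists below, such as pentose phosphate and glycogen genes, lie near them. Among the fructose, polyol and glycerol genes 6 of 8 were higher in PCT in both genotypes. They include Gk, glycerol kinase (log2 7.54, adjusted p = 3.25e-09, in WT), Gpd1, glycerol phosphate dehydrogenase (4.84, adjusted p = 1.22e-10), and Tkfc, triokinase (4.89, adjusted p = 1.22e-10). Slc2a5, the fructose transporter gene, had 11.4 ± 2.76 CPM (SD, n = 4) in WT PCT and no count in WT DCT, a difference of at least 146-fold against 3 counts per library.

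Of 13 tested genes of pyruvate entry and its control, 3 were higher and 6 lower in PCT in both genotypes. Slc16a7, a monocarboxylate transporter gene, had 334 ± 20.7 CPM in WT DCT and 0.324 ± 0.188 CPM in WT PCT (SD, n = 4 each, adjusted p = 7.37e-12 by limma), and Pdk1, a kinase that switches pyruvate dehydrogenase off, had 31.9 ± 0.528 and 1.22 ± 0.388 CPM (adjusted p = 4.37e-11 by limma). Glycogen genes gave 2 higher and 5 lower in PCT in WT: Pygl, glycogen phosphorylase of liver, had 11.8 ± 0.868 CPM (SD, n = 4) in WT DCT and no count in PCT, and Gys2, liver glycogen synthase, had 1 count in WT DCT and 3.91 ± 0.693 CPM (SD, n = 4) in WT PCT. Of 9 tested pentose phosphate genes 3 were higher and 1 lower in PCT in WT, led by H6pd (log2 3.16, adjusted p = 1.55e-10). Of 13 shuttle and anaplerosis genes 5 were higher and 7 lower, with Me1, malic enzyme, at 7.66 (adjusted p = 1.52e-09) and Slc25a12, an aspartate carrier gene, at -1.64 (adjusted p = 7.07e-09).

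Regulators of the pathway were split as well, with 10 higher and 9 lower of 25 tested in WT. Hnf4a, a transcription factor of proximal cells, had 94.3 ± 10.2 CPM in WT PCT and 0.282 ± 0.234 CPM in WT DCT (SD, n = 4 each). Mlxipl, the carbohydrate response factor, differed by 4.45 (SE 0.46, adjusted p = 5.29e-07), and Nr3c1, the glucocorticoid receptor, by 1.99 (SE 0.13, adjusted p = 5.28e-09). Gcgr, the glucagon receptor, had 4.08 ± 0.615 CPM (SD, n = 4) in WT DCT and 1 count in WT PCT, a ratio of 807 (95% counting interval 144 to 31922). Txnip, a brake on glucose uptake, had 56.6 ± 10.8 CPM in WT DCT and 4.45 ± 3.14 CPM in WT PCT (SD, n = 4 each, adjusted p = 1.62e-08 by limma).

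Between genotypes none of these 104 genes was called, of 87 tested in PCT and 85 in DCT. The smallest adjusted p in PCT was that of Gpd2, the mitochondrial glycerol phosphate dehydrogenase, with 8.08 ± 2.10 CPM (SD, n = 4) in WT and 16.5 ± 3.71 CPM (SD, n = 3) in KO (log2 1.04, SE 0.22, adjusted p = 0.106 by limma). Gys1, muscle glycogen synthase, followed in its list with a log2 difference of -1.01 (SE 0.30, adjusted p = 0.346), Me3, a mitochondrial malic enzyme, with -0.96 (SE 0.26, adjusted p = 0.269) and Ldhd, the D-lactate dehydrogenase, with 1.19 (SE 0.37, adjusted p = 0.377). In DCT the lowest was 0.662, for Slc25a13.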

How the data were processed

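The deposited table held 1 whole-number count per gene and library, which the authors made from Illumina Nextera XT libraries. The submitters' processing notes name CASAVA 1.8, STAR 2.5, DESeq2 1.24.0 and the build GRCm38. Which program counted reads, on which annotation and strand, is not given in the sources used here. Reads of genes that overlap on opposite strands cannot be told apart. The deposited count table was recorded as other whole-number values, and a count model was not used. The authors' deposited comparison tables gave log2 fold changes and p-values. Libraries were scaled by trimmed means of M values (30% and 5% trimmed), genes with scaled counts under 10 or a total under 15 were left out, and each comparison was fitted with limma 3.58.1 (voom, prior count 0.5) in R 4.3.3, with Benjamini-Hochberg adjustment over all genes tested. CPM per kb used merged exon lengths of GENCODE M21. Intervals and floors cover counting error only. The code was tested on simulated data. Members and lists were chosen with earlier results of these data known. Genes called, or of an irreversible step, were given in every library, others by range, and of other lists up to 4 with the smallest p per comparison. Alternatives covered scaling, filters, weights, number series, replicate block and each library left out. By their identifiers, WT PCT replicate 6 and KO PCT replicate 7 belonged to 1 number series and all other libraries to another. What the series stand for is not stated, and no DCT library was in the smaller one. With the series as a covariate 25 genes were called between segments in WT, 21 in KO and 0 for genotype in PCT.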

Additional observations from a re-analysis of the deposited data

Results flagged for a closer look

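In groups of 4 libraries, 85 gene and group combinations were examined for a library far from the other 3, and 3 were found, where chance gives about 1 in 20. Pck1 stood at 724 CPM in WT PCT replicate 1, against 205 to 285 CPM in the other WT PCT libraries. Ldhb stood at 231 CPM in WT DCT replicate 1, against 263 to 268 CPM in the others. Sord stood at 239.6 CPM in WT PCT replicate 3, against 217 to 219.7 CPM in the others.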

How the results depend on the processing

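No estimate of a called gene changed sign under any alternative run, and the totals of called genes stayed within 1.5 times their value. Leaving out 1 library gave 24 to 26 genes called between segments in WT, 20 to 24 in KO, and 0 to 0 for genotype in PCT, for genotype in DCT and for the interaction. Deviations of same-numbered libraries correlated at -0.015, -0.052 and 0.043 in WT and -0.13 and -0.25 in KO. Those of differently numbered libraries correlated at -0.10 to 0.11 in WT and -0.11 to 0.29 in KO. So few pairs cannot tell whether a number marks an animal. With the replicate block 22 genes were called in WT and 17 in KO, and the same libraries without it (a comparison chosen after seeing the data) gave 24 and 18. In KO the split of 11 higher and 12 lower became 11 and 6 with the block, and 10 and 8 in the same libraries without it. In both of these fits Pfkl, Pgk1, Pdhb and Aldoa lost their KO call and Pfkl and Dlat their WT call. With the block Ldhb and Pfkfb2 also lost it in KO (adjusted p = 0.0649 and 0.105 by limma) and Pfkfb2 in WT (0.0527), and without it Gapdh did in KO (0.0597). Single genes lost their call in 13 fits in WT and 28 in KO and gained it in 5 and 7. Without a filter on low counts the WT median of all genes moved by -0.14. Over all genes, calls between genotypes in PCT went from 22 to 80 with no filter, 36 with a stricter filter, 40 with quality weights, 46 at an adjusted p under 0.1 and 123 with 1 fit of all 15 libraries, and leaving out 1 library gave 2 to 18. Low counts limit Hk1 and Pkm in PCT and Fbp1, Pck1 and G6pc in DCT.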
